A study of Mus musculus with 11 samples.

Results

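Interferon-stimulated genes are the genes that cells switch on after exposure to interferons, and 37 of them were followed here in mesenchymal cells of the mouse liver. They were chosen by symbol from a fixed list and not by a cut on measured values, though with earlier results of these data known. Of these, 36 were matched among the 27998 genes of the 10x table (Mx2 was not analysed there) and 37 among the 24490 genes of the Smart-seq2 (SS2) plates. All cells came from C57BL/6 mice carrying a Pdgfrb-BAC-eGFP transgene, a reporter that marks cells with Pdgfrb promoter activity, and were sorted as GFP+ CD45- CD102- cells. In the 10x experiment, hepatic stellate cells (HSC) were taken from uninjured mice, from mice 72 h after a single dose of carbon tetrachloride (CCl4, a hepatotoxin) and from mice given CCl4 repeatedly for 6 weeks. Portal fibroblast preparations (PF), which also hold vascular smooth muscle cells (VSMC), were taken from uninjured mice and from mice given CCl4 for 6 weeks. Each of these 5 libraries pooled 3 mice, so each condition has 1 library and no replicate check. The SS2 plates held PF wells of uninjured mice, of mice 14 days after bile duct ligation (BDL) and of mice given CCl4 for 6 weeks. Plate 6 held uninjured wells alone, of both PF and HSC preparations. The HSC and PF preparations also differed in how the liver was digested, by perfusion and a density gradient for HSC and by ex vivo enzyme digestion for PF, so the cell type, the library and the isolation cannot be told apart when HSC are set against the other cells.

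Type I interferons bind the receptor formed by Ifnar1 and Ifnar2, and type II interferon binds Ifngr1 and Ifngr2. Both receptors activate JAK kinases and STAT proteins. The type I arm acts mainly through a complex holding Stat2 and Irf9 that binds the interferon-stimulated response element (ISRE), and the type II arm through the gamma-activated site (GAS). The genes so induced encode sensors of viral nucleic acid, inhibitors of viral entry and translation, and GTPases that attack the membranes in which pathogens live. In the liver this response is best known from viral infection, and stellate cells are among the cells able to mount it.

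The promoters of 4 of the genes are shown because they stood at the ends of the HSC comparisons, Irgm1 and Cmpk2 among the largest falls at 72 h and Irf7 and Rsad2 among the largest rises at 6 weeks. Irgm1 and Rsad2 carry an ISRE match and Cmpk2 and Irf7 do not. Each line gives the 250 bases before the RefSeq gene start on the coding strand of GRCm38.p6, with ISRE matches in capitals.
Irgm1: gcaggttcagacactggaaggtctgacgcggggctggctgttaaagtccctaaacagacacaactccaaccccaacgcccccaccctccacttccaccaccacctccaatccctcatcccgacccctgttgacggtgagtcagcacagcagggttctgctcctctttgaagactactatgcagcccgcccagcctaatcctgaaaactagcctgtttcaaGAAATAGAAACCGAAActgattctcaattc
Rsad2: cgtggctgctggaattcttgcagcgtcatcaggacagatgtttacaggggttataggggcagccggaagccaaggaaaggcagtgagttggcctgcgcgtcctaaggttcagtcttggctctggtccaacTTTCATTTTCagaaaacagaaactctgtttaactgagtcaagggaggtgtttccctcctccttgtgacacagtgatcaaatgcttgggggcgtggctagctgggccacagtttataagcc
Cmpk2: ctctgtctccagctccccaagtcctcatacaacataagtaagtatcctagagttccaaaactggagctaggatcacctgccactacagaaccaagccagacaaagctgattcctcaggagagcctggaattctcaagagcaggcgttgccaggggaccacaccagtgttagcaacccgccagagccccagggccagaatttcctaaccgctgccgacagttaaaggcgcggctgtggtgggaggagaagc
Irf7: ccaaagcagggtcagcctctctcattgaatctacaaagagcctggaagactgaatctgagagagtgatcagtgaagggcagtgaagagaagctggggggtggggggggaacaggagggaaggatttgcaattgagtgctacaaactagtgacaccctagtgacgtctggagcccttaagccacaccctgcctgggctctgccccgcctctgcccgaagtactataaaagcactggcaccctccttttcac
The windows lie at chr11:48871421-48871670 on the minus strand for Irgm1, chr12:26456453-26456702 on the minus strand for Rsad2, chr12:26468965-26469214 on the plus strand for Cmpk2 and chr7:141266425-141266674 on the minus strand for Irf7. An ISRE match was taken as TTTCNNTTTC on either strand, searched from 250 bases before to 50 bases after the start. Irgm1 holds 2 matches that overlap, GAAATAGAAA and GAAACCGAAA, ending 21 and 15 bases before the start. Rsad2 holds 1, TTTCATTTTC, ending 111 bases before the start. Of the 37 genes, 27 had a promoter in the RefSeq table, in 31 windows. The ISRE letters occurred in 19 of the 31 windows (61.3%) against 3.44% of all 32851 windows, and the GAS letters (TTCNNNGAA, either strand) in 8 of 31 (25.8%) against 8.30%. These are matches of letters only, and Irf7, without a match in its window, was the gene with the largest rise at 6 weeks.

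The 5 libraries held 6850, 7310 and 5454 HSC, and 5737 and 5648 PF cells after filtering, with 25965670 to 86664085 unique molecular identifiers (UMIs) per library and a median of 4300 to 11344 UMIs per cell. Pairs of libraries shared 33 to 74 cell barcodes. Clustering was done without the genes described here. It gave 6850, 7293 and 5447 HSC-like cells in the 3 HSC libraries, 4096 and 2696 fibroblast-like (FB-like) cells and 1552 and 2840 VSMC-like cells in the uninjured and 6-week PF libraries, each named from its markers. Levels are counts per 1000000 UMIs of the summed cells of a class (CPM), with exact Poisson 95% intervals that cover counting error only, and fewer expressing cells and less RNA per cell cannot be told apart in such sums. A CPM is also a share of all UMIs. HSC-like cells had a median of 6718, 11345 and 9893 UMIs in the uninjured, 72 h and 6-week libraries. They held a mean of 27.49, 33.29 and 52.55 UMIs per cell of these genes other than Ifitm3 and Bst2. A lower CPM at 72 h is thus a lower share of a larger total, and not fewer UMIs per cell in this sum. A gene is called higher or lower when its CPM ratio was past 1.5-fold with at least 5 CPM in the higher group. Comparisons at 72 h and at 6 weeks share the uninjured library.

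HSC-like cells had the highest levels of these genes, FB-like cells lower and VSMC-like cells the lowest. Summed over 36 genes, the level was 9772 CPM (9744 to 9801) in uninjured HSC-like cells, 7232 (7214 to 7250) at 72 h and 12081 (12051 to 12111) at 6 weeks. It was 3278 CPM (3254 to 3303) in uninjured FB-like cells and 3400 (3373 to 3428) at 6 weeks. In VSMC-like cells it was 1458 CPM (1424 to 1492) uninjured and 1596 (1574 to 1618) at 6 weeks. The HSC sum was thus lowest at 72 h and highest at 6 weeks, while the 2 libraries of each PF class lay close together. Ifitm3, a membrane protein that blocks viral entry, made up 47.2% to 63.1% of each sum. Its level is uncertain, since reads could be divided between it and its near copy Ifitm2, and the same holds for Ifit3 with Ifit3b and Oas1a with Oas1g. Without Ifitm3 and Bst2, the sums were 4059, 2810 and 5492 CPM for the HSC-like class, 1040 and 1104 for the FB-like class, and 705.7 and 665.1 for the VSMC-like class.

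**Figure D1:**
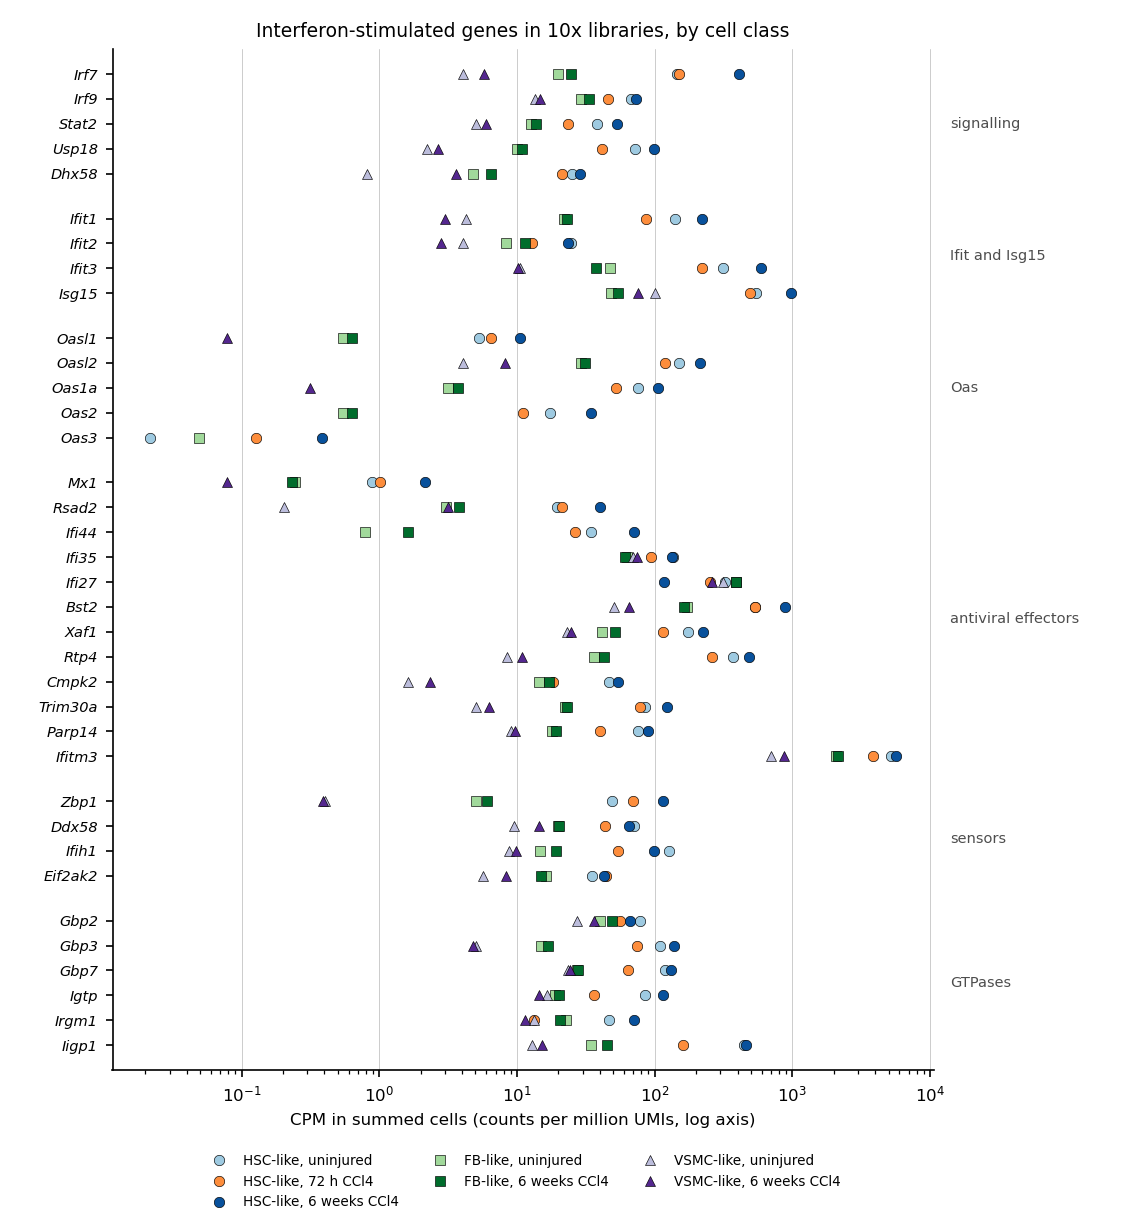
Levels of 36 interferon-stimulated genes in 10x libraries. The x axis is CPM on a log scale, genes are grouped by role on the y axis, circles are HSC-like, squares FB-like and triangles VSMC-like cells, 1 point per class and library, and values of 0 are not drawn. HSC-like points lie to the right for nearly all genes, for example Irf7 at 144.9, 149.2 and 412.2 CPM against 19.9 to 24.8 in FB-like and 4.04 to 5.80 in VSMC-like cells. For Ifi27 the 6-week values were 117.6 CPM (HSC-like) and 391.6 (FB-like).

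In uninjured libraries, 33 of the 34 genes that passed 5 CPM were called higher in HSC-like than in FB-like cells, where 22.4% of all 10544 genes were higher, and 0 were lower, where 21.2% of all genes were. The median log2 ratio was 2.28, against 0.07 over all genes. The minimum applied to the higher group, so genes could pass through HSC-like cells alone. Across uninjured and 6-week FB-like cells, 29 genes reached it. In the comparison of FB-like with VSMC-like cells below, genes could likewise pass through FB-like cells alone. Ifi44, a cytoplasmic protein of little known function, differed most, by 43.9-fold, followed by Oas2, a synthase of the messenger that activates RNase L, at 32.1-fold. Both lay under 5 CPM in uninjured FB-like cells, so these ratios rest on low counts there. Ifi27, a mitochondrial and nuclear membrane protein, was the gene not called, at 325.1 CPM in HSC-like and 388.4 in FB-like cells. Within the uninjured PF library, 22 of 28 genes that passed were higher in FB-like than in VSMC-like cells (30.7% of all genes) and 1 was lower (17.6%), with a median log2 ratio of 1.38 against 0.15. The one called lower was Isg15, a ubiquitin-like protein conjugated to other proteins during the response, at 48.6 CPM against 101.4. Isg15 ranked 3rd among the genes in VSMC-like cells and 5th in FB-like cells, Ifitm3 ranked first in every class and library, and Ifi27 ranked 2nd in all 4 PF groups.

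At 72 h, HSC-like cells had lower levels of most interferon-inducible GTPase genes and of the RNA sensors Ifih1 and Ddx58 than uninjured HSC-like cells, while Irf7, Bst2 and Isg15 were nearly level and the sensors Zbp1 and Eif2ak2 lay higher without being called. Of 34 genes that passed, 0 were called higher, where 14.4% of all 9962 genes were, and 14 lower, where 26.5% of all genes were. The median log2 ratio was -0.53, against -0.21 over all genes, and 28 of the 34 lay below 1. The share called lower was 41.2% of these genes, and it moved with the scaling. Scaling by the median of ratios, against which these libraries sat at -0.16 on the log2 scale, left 9 called lower and 1 higher. The shares of all genes above are without this scaling. The interferon-inducible GTPases moved most. Of 6 that passed, 4 were called lower, with a median log2 ratio of -1.07.

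Irgm1, a GTPase that regulates the others of its family and autophagy (chr11:48861968-48871683, minus strand), had 46.8, 13.3 and 70.9 CPM in uninjured, 72 h and 6-week HSC-like cells. The 72 h library was the lowest by far, at 0.285 of uninjured (0.265 to 0.306), and below the 22.8 and 20.4 CPM of FB-like cells. Iigp1, a GTPase that ruptures vacuoles of intracellular parasites, had 446.8, 161.4 and 463.2 CPM in the same order. Its 72 h ratio was 0.361 (0.353 to 0.369), and the other 2 libraries were nearly level. Igtp, which acts with Iigp1, had 85.4, 36.1 and 114.6 CPM, a ratio at 72 h of 0.422 (0.403 to 0.443). The guanylate-binding proteins of the same response differed less. Gbp7 had 118.8, 63.8 and 131.2 CPM and was called lower at 72 h, while Gbp3 (110.3, 74.5 and 137.4) and Gbp2 (78.3, 56.0 and 65.8) were not.

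Among sensors, Ifih1, which detects long double-stranded RNA (chr2:62595798-62646255, minus strand), had 126.4, 54.6 and 98.6 CPM. It was low at 72 h, at 0.432 of uninjured (0.416 to 0.449), and lay below uninjured also at 6 weeks. Ddx58, the RIG-I sensor of viral RNA ends, had 71.0, 43.5 and 64.9 CPM and was likewise lowest at 72 h. Zbp1, a sensor of left-handed nucleic acid (chr2:173206612-173218923, minus strand), had 49.0, 69.6 and 115.8 CPM, and Eif2ak2, the kinase PKR that stops translation, had 35.0, 44.2 and 43.1. Zbp1 and Eif2ak2 lay above uninjured at 72 h, by 1.42 (1.35 to 1.49) and 1.26 (1.19 to 1.34), neither past 1.5-fold.

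Signalling members split at 72 h. Irf7, the transcription factor that amplifies type I interferon production (chr7:141262706-141266481, minus strand), had 144.9, 149.2 and 412.2 CPM, so uninjured and 72 h cells were nearly level. Stat2 (38.1, 23.3 and 52.9 CPM), a subunit of the ISRE-binding complex, and Usp18 (72.5, 41.7 and 98.8), which removes Isg15 from proteins and dampens receptor signalling, were called lower at 72 h. Irf9, the DNA-binding subunit of that complex, had 67.0, 46.0 and 72.8 CPM and was not called, nor was Dhx58, a regulator of the RNA sensors, at 25.3, 21.2 and 28.7. Of the Ifit family, which binds viral RNA, Ifit1 (141.2, 87.1 and 222.7 CPM) and Ifit2 (24.8, 12.8 and 23.4) were called lower at 72 h. Ifit3 had 316.2, 221.7 and 596.7 CPM and Isg15 had 541.7, 490.6 and 974.3. All 4 of these genes had their lowest level at 72 h.

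At 6 weeks, 11 of these genes, led by Irf7 and Zbp1, stood higher in HSC-like cells than in the uninjured library, and Ifi27 stood lower. Of 34 genes that passed, 11 were called higher, where 7.11% of all 9695 genes were, and 1 lower, where 12.4% were. The median log2 ratio was 0.40, against -0.22 over all genes, and 28 of the 34 lay above 1. Scaling by the median of ratios, against which these libraries sat at -0.20 on the log2 scale, gave 18 higher and 1 lower. The shares of all genes just given are without this scaling. The genes called higher were Irf7, Ifit1, Ifit3, Isg15, Oasl1, Oas2, Rsad2, Ifi44, Bst2, Zbp1 and Irgm1, which are 3 of the 4 in the Ifit and Isg15 group, 2 of 4 Oas genes that passed, 3 of 11 effectors, and 1 each of the signalling, sensor and GTPase groups.

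Irf7 rose most at 6 weeks, to 2.85 times uninjured (2.77 to 2.92), followed by Zbp1 at 2.36 (2.25 to 2.48). Rsad2, the enzyme viperin that makes a chain-terminating nucleotide, had 19.5, 21.3 and 40.3 CPM, a ratio of 2.07 (1.91 to 2.24). Ifi44 had 34.6, 26.5 and 70.6 CPM, a ratio of 2.04 (1.93 to 2.17). In each of these genes the 6-week library was the highest, and its counting interval did not reach the other 2. Oasl1, which restrains translation of Irf7, was low throughout, at 5.28, 6.53 and 10.5 CPM (ratio 2.00, 1.71 to 2.33), and Oas2 had 17.4, 11.2 and 34.5 CPM. Bst2, the tether that keeps viruses on the cell surface, had 535.4, 537.4 and 883.4 CPM. It was level at 72 h and higher at 6 weeks only. Ifi27 moved the other way: it had 325.1, 252.7 and 117.6 CPM (chr12:103434211-103440239, plus strand), and its 6-week ratio was 0.362 (0.351 to 0.373). It was the gene called lower at 6 weeks, and its order of levels over the 3 libraries was the reverse of that of Irf7.

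**Figure D2:**
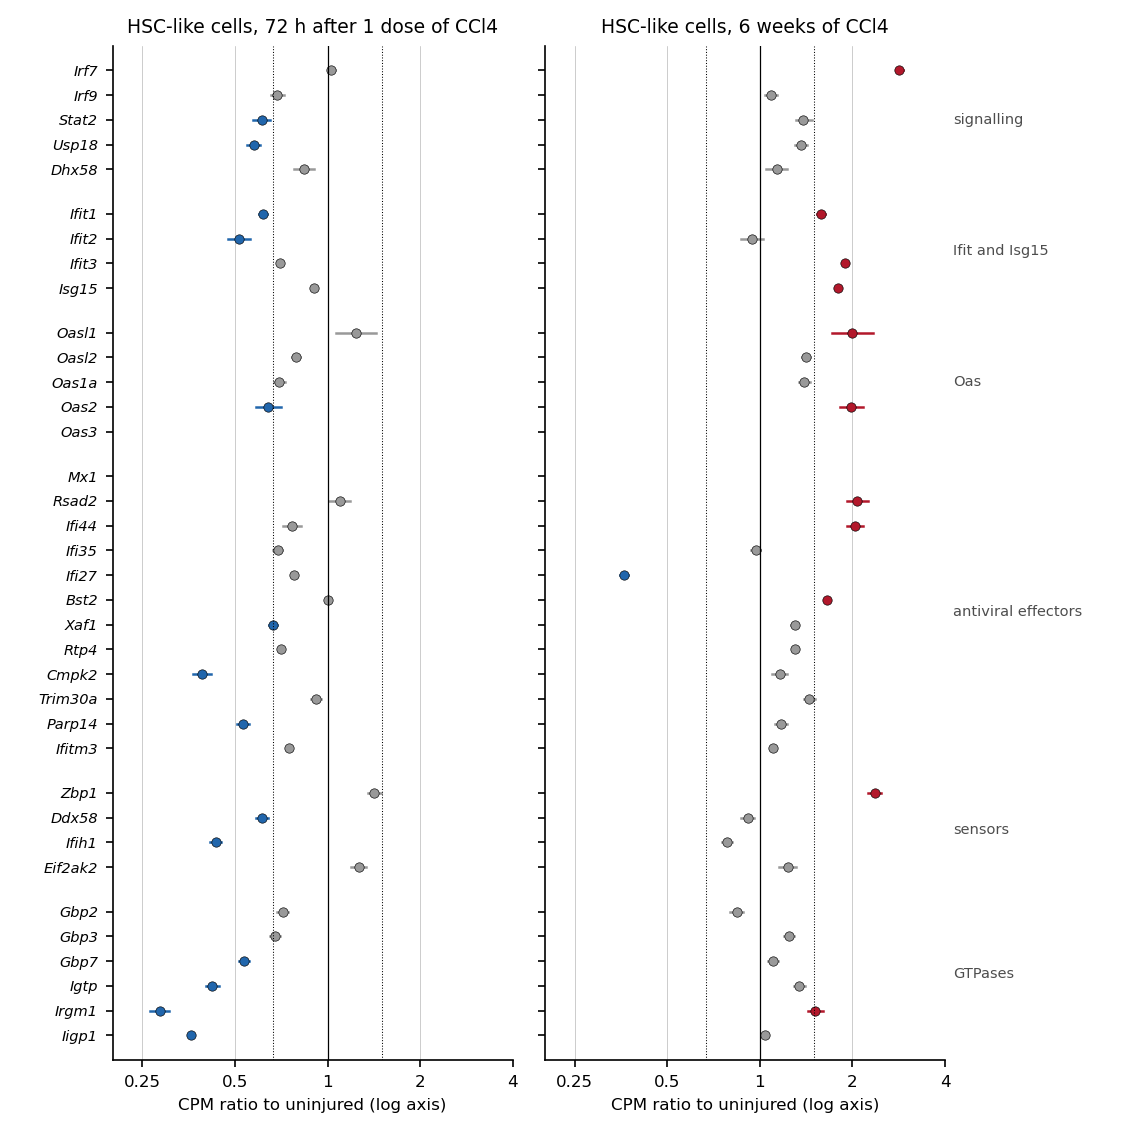
CPM ratio of each gene in HSC-like cells to the uninjured library, at 72 h (left) and 6 weeks (right), on a log axis. Points are ratios and bars 95% counting intervals, blue points were called lower, red points higher and grey points neither, and dotted lines mark 1.5-fold in each direction. The left panel has 14 blue points, led by Irgm1 at 0.285, and the right panel has 11 red points, led by Irf7 at 2.85, and 1 blue, Ifi27 at 0.362.

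Most of the remaining effectors also had their lowest level at 72 h. Rtp4, a chaperone of receptors, had 370.9, 261.4 and 483.3 CPM, and Xaf1, a promoter of cell death, had 174.2, 115.7 and 226.1. Cmpk2, a mitochondrial nucleotide kinase encoded beside Rsad2, had 47.0, 18.4 and 54.5 CPM. Its 72 h ratio of 0.391 (0.366 to 0.417) stood beside 1.10 (1.01 to 1.19) for Rsad2, so these neighbouring genes did not move together. Parp14, an ADP-ribosyltransferase, had 76.1, 40.4 and 89.4 CPM and was called lower at 72 h. Ifi35 (137.0, 94.3 and 133.1 CPM), Trim30a (85.5, 78.5 and 123.9), and Ifitm3 (5178, 3884 and 5706) were called in neither comparison. Mx1 stayed at 0.88, 1.01 and 2.15 CPM and Oas3 at 0.02, 0.13 and 0.38, both under the 5 CPM needed.

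Between the 72 h and 6-week libraries the difference was wider. Of 34 genes, 27 were called higher at 6 weeks than at 72 h, where 12.3% of all 9796 genes were, and 1 lower, where 13% were, and the median log2 ratio was 0.90 against -0.01 over all genes. Irgm1 differed most, by 5.32-fold (4.98 to 5.69), then Igtp by 3.18 and Oas2 by 3.10. Ifi27 was the gene called lower, at 0.465. These libraries also differed in the dividing-cell markers, at 30.2, 282.7 and 33.9 CPM in uninjured, 72 h and 6-week HSC-like cells, and in the HSC markers, at 27246, 5819 and 14898 CPM. Immediate early genes, which rise during tissue digestion, summed to 12867, 7495 and 10521 CPM, and heat shock genes to 5469, 2451 and 5192. The counts against uninjured were also taken without the uninjured cluster of high immediate early genes. Those of comparisons holding the 72 h library were also taken without the dividing cluster. All these counts stayed within 1.5 times those given. A 6-week cluster with immediate early genes at 17938 CPM was kept in. Leaving out a cluster keeps any difference that runs through a whole library, and the part of these lists in the result was not tested. Leucocyte markers summed to 7.37, 15.5 and 11.2 CPM, Kupffer cell markers to 0.67, 1.52 and 1.19, and dendritic, T and NK cell markers to at most 0.211. Endothelial markers summed to 63.6, 28.8 and 82.7 CPM and were nearly all Clec4g, a lectin of liver sinusoids.

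Other genes of the pathway, 45 in a second list, are given beside these targets. At 72 h, 31 passed, 1 was called higher, where 14.4% of all genes were, and 13 lower, where 26.5% were. At 6 weeks, 30 passed, 0 were called higher, where 7.11% of all genes were, and 3 lower, where 12.4% were. The 6-week share lower was thus near that of all genes. The median log2 ratio at 6 weeks was -0.18, against -0.22 over all genes. None of the 11 interferon ligand genes reached 5 CPM in any class or library. Ifnar2 had 448.3, 342.5 and 463.4 CPM in the HSC libraries, 105.7 and 119.1 for FB-like and 27.3 and 41.3 for VSMC-like cells, HSC-like above FB-like above VSMC-like. Ifnar1 was low and flat in HSC-like cells, at 29.5, 28.3 and 28.3 CPM. Ifngr1 was highest in FB-like cells, at 251.1 and 249.3 CPM, against 123.1, 68.9 and 93.3 in HSC-like cells. Irf1, a factor induced mainly by type II interferon, had 297.1, 69.1 and 175.0 CPM, and Socs1, a brake on JAK kinases, 32.5, 14.8 and 28.0. Both were low at 72 h and did not exceed uninjured at 6 weeks. The chemokine Cxcl10 followed them, at 467.3, 182.5 and 340.1 CPM, and B2m, the light chain of MHC class I, had 10931, 5084 and 10910.

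Cells within a library differed widely. Each cell was thinned to 2000 UMIs to remove depth, and the UMIs of the 34 genes other than Ifitm3 and Bst2 were counted. The median was 7, 5 and 10 in HSC-like cells of the uninjured, 72 h and 6-week libraries, 2 in both FB-like groups and 1 in both VSMC-like groups. Cells with at least 6 such UMIs were 63.2% (exact binomial 95% interval 62.1 to 64.4), 42.7% (41.6 to 43.9) and 76.7% (75.6 to 77.8) of HSC-like cells. In FB-like cells they were 5.70% (4.99 to 6.47) and 5.73% (4.87 to 6.69), and in VSMC-like cells 2.21% (1.5 to 3.12) and 1.21% (0.825 to 1.72). At 72 h more HSC-like cells lay at the low end than uninjured. At 6 weeks the upper part of the distribution spread. The share at 0 such UMIs was nearly level, with 0.52% of uninjured and 0.588% of 6-week cells. The share at each of 1 to 5 such UMIs was lower at 6 weeks than uninjured. It was 3.029% uninjured and 2.166% at 6 weeks for 1 such UMI, and 9.828% and 6.37% for 5. Between 12.8% and 22.0% of HSC-like cells lay next to the limit of 6, so a share is a point on a range and not a type. Before thinning, the shares were 96.4%, 97.2% and 98.3% in HSC-like, 31.3% and 47.1% in FB-like and 6.44% and 13.6% in VSMC-like cells. Thinning left out 114 uninjured HSC-like cells, 198 and 94 FB-like and 146 and 281 VSMC-like cells of fewer UMIs.

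**Figure D3:**
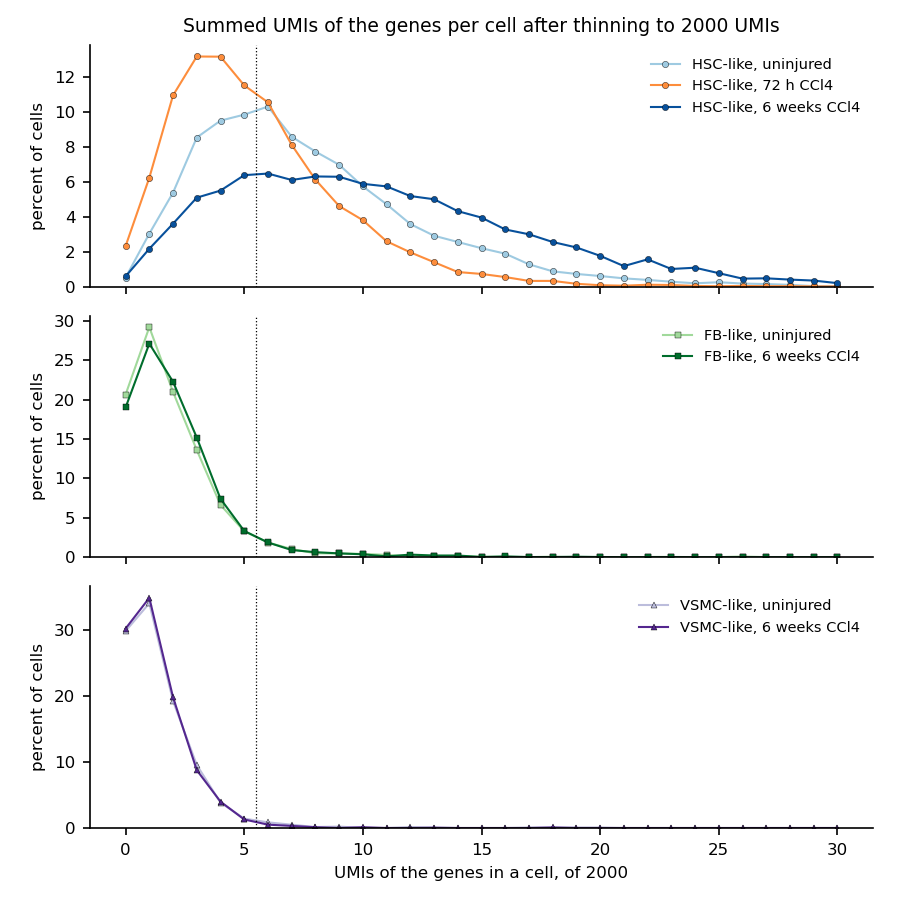
Distribution over cells of the UMIs of 34 genes after thinning each cell to 2000 UMIs. The x axis is UMIs per cell up to 30, the y axis the percent of cells of that class and library, lines are libraries, and the dotted line marks the limit of at least 6. HSC-like cells at 6 weeks are the most spread, with 76.7% at or past the limit, against 42.7% at 72 h and 63.2% uninjured, while FB-like and VSMC-like cells pile up at 0 to 2.

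Clusters within HSC-like cells were compared by library. In uninjured cells the summed level without Ifitm3 and Bst2 was 3855 CPM in cluster 1 (4124 cells) and 4307 in cluster 4 (2640 cells). Cluster 4 was the one with high immediate early genes, at 22428 CPM against 5768, and it also held Cxcl10 at 815.7 CPM and Irf1 at 438.9. At 72 h the clusters had 2668 (cluster 3), 2465 (cluster 10), 2809 (cluster 12, dividing cells) and 3558 CPM (cluster 14). At 6 weeks they had 5505 (cluster 6), 6104 (cluster 9), 5051 (cluster 13) and 4422 CPM (cluster 15), and the 56 cells of cluster 12 had 6207. By this sum every 72 h cluster lay below both uninjured clusters, and every 6-week cluster above them. With Ifitm3 and Bst2 included the first did not hold, since cluster 14 had 9769 CPM, above cluster 1 at 9678 and below cluster 4 at 9877. Clusters 9 and 14 had Clec4g among their leading genes, at 139.7 and 108.2 CPM. Without them, 19 genes in place of 14 were called lower at 72 h. The share of all genes given beside the 14 was counted with these clusters included. Over the clusters, with libraries pooled, Irgm1 ranged 6.2-fold from lowest to highest, Igtp 4.81-fold and Eif2ak2 1.56-fold. Each HSC-like cluster came mostly from 1 library, so these ranges include the differences between libraries. Irgm1 and Igtp were lowest in cluster 10, with 1610 of 1623 cells from 72 h. Both were highest in cluster 9, with 1637 of 1674 cells from 6 weeks. Iigp1 was highest in cluster 4 at 582.2 CPM and Ifi27 in cluster 1 at 347.5.

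**Figure D4:**
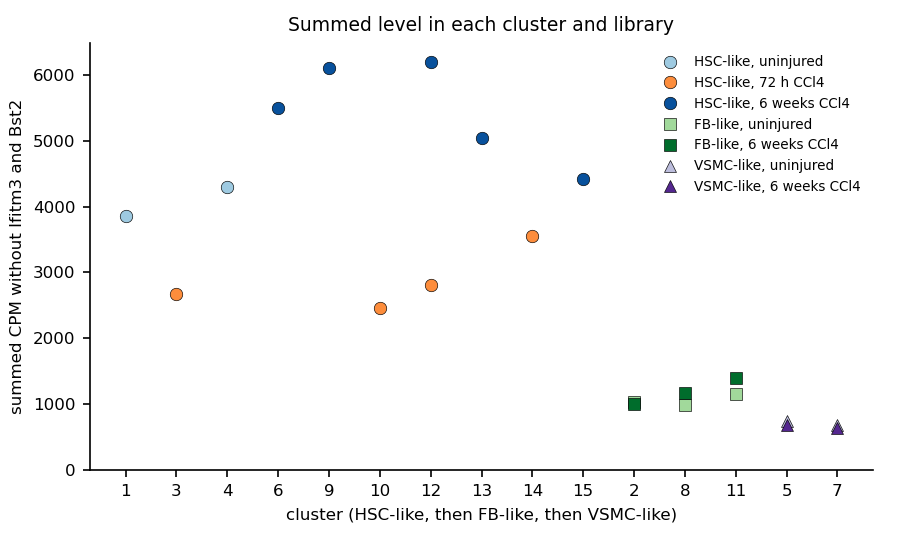
Summed CPM of 34 genes (without Ifitm3 and Bst2) in each cluster, HSC-like clusters first, then FB-like, then VSMC-like, with 1 point per library that gave the cluster at least 50 cells. The 72 h points of HSC-like clusters lie between 2465 and 3558, the uninjured points at 3855 and 4307, and the 6-week points at 4422 and above, while no FB-like or VSMC-like point passes 1397.

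Within each HSC library, some of these genes rose and fell together between cells and others did not. Cells were ranked for each gene by the other genes of the list, split into 4 equal groups, and the highest group was set against the lowest, as a description, since the cells of 1 library share their source. In the uninjured, 72 h and 6-week libraries, Ifit3 differed 6.36, 4.62 and 5.85-fold between these groups, Ifit1 5.61, 4.42 and 5.81-fold, and Isg15 4.16, 3.11 and 4.40-fold. Rsad2 differed 8.77, 5.64 and 9.10-fold, but the lowest groups held only 19, 32 and 28 of its UMIs, so these ratios are imprecise. Irf7 differed less, at 2.39, 2.37 and 2.41-fold, and Ifitm3 only 1.25, 1.42 and 1.62-fold. Ifi27 was lower in the highest group, at 0.835, 0.757 and 0.378. Past 1.5-fold were 1.59%, 3.73% and 3.55% of genes outside the list. The genes outside the list that differed most were Ifit3b, Gm4955 and Pydc4 in uninjured cells and Ifit3b, Cxcl10 and Gm4955 at 6 weeks. Immediate early genes differed little between the groups, at 1.22, 0.996 and 0.891. Heat shock genes differed by 1.05, 0.948 and 1.38-fold, at 6 weeks with 5749 CPM in the highest group and 4169 in the lowest.

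In FB-like cells, 6 weeks of CCl4 gave no call. Of 29 genes that passed, 0 were higher, where 6.16% of all 10263 genes were, and 0 lower, where 2.41% were, and the median log2 ratio was 0.11 against 0.00. Ifit2, at 8.37 and 11.4 CPM uninjured and at 6 weeks, had the highest ratio, 1.36, and Ifit3, at 47.7 and 37.4 CPM, the lowest, 0.785. Irf7 had 19.9 and 24.8 CPM. In VSMC-like cells, 2 of 23 genes were called higher, where 11.4% of all 9825 genes were, and 0 lower, where 3.07% were. They were Oasl2, an Oas family member that supports RIG-I, at 4.04 and 8.23 CPM (ratio 2.04, 1.26 to 3.47), and Ddx58 at 9.50 and 14.5 CPM (1.53, 1.10 to 2.15). Both were low, and neither was called with a 20 CPM minimum. Isg15 in VSMC-like cells went from 101.4 to 75.5 CPM, a ratio of 0.745, and in FB-like cells from 48.6 to 54.1. Whether the 6-week change in HSC-like cells differs from that in the PF classes was not tested, since each condition is 1 library.

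The SS2 plates gave portions, each the summed wells of 1 labelled mouse on 1 plate, and served as a second assay with replicates. Plates 1 to 5 held 1748 wells that passed filters in 14 portions, 5 uninjured, 5 BDL and 4 CCl4. BDL portions lay on plates 1, 2 and 4 and CCl4 portions on plates 3 and 5, and each plate held an uninjured portion. The labels do not say whether a mouse was sorted onto more than 1 plate, so p-values measure only the spread between portions, which may be technical. Levels are reads per 1000000 reads of a portion (RPM). The order of FB and VSMC was present here too. The FB-like wells of each portion were set beside its VSMC-like wells. Genes counted had a mean of 5 RPM or more in either class, which some reached in FB-like wells alone. Of 34 such genes, 10 were higher in FB-like wells in all 14 portions (7.25% of all 11398 genes) and 0 lower in all (9.66%). The median log2 ratio was 1.44, against -0.09 over all genes. The 10 were Irf7, Irf9, Stat2, Ifit1, Ifit3, Oasl2, Oas1a, Bst2, Iigp1 and Ifitm3. Irf7 ran from 8.24 to 86.4 RPM (median 51.6) in FB-like wells and from 0.037 to 22.4 (median 10.3) in VSMC-like wells. Isg15 was higher in FB-like wells in 5 of 14 portions and lower in 9, and Ifi27 higher in 2 and lower in 12. In the 10x libraries Isg15 was also higher in VSMC-like cells, while Ifi27 was higher in FB-like cells, at 388.4 against 316.0 CPM uninjured and 391.6 against 260.3 at 6 weeks.

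After BDL, FB-like wells had a lower sum of the 37 genes than uninjured FB-like wells. The sum was 2802, 1918, 2218, 2904 and 2575 RPM in the BDL portions and 3146, 3854, 4014, 3413 and 3867 in the uninjured portions, so the groups did not overlap, with 2483 ± 411 (SD, n = 5) against 3659 ± 364 (SD, n = 5). The CCl4 portions had 3357, 4078, 3505 and 3289 RPM, which overlapped the uninjured portions. The BDL portions held 92, 13, 80, 9 and 108 FB-like wells, so 2 of the 5 rest on few wells, and the other 3 lay below all uninjured portions too. Much of the gap was Ifitm3, at 1155, 1086, 1108, 920.2 and 1171 RPM after BDL and 1449, 2135, 1362, 1595 and 1674 in uninjured FB-like wells. Its log2 fold change was -0.62 ± 0.21 (SE), with an adjusted p of 0.453 by edgeR's quasi-likelihood test. Without Ifitm3 and Bst2 the groups overlapped, at 791 to 1919 and 1558 to 2504 RPM. Ifi27 also did not overlap in FB-like wells, at 93.0 to 166 RPM after BDL and 169 to 260 uninjured, with a log2 fold change of -0.61 ± 0.22 (SE) and an adjusted p of 0.481. Ifitm3 and Ifi27 were the 2 genes of 35 without overlap and lower, where 1.26% of all genes were, and 0 were higher, where 1.16% were.

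In VSMC-like wells the sums were 1627, 1478, 1493, 1603 and 1525 RPM after BDL, 1797, 2087, 1672, 1528 and 2101 uninjured, and 1492, 1369, 1796 and 1704 with CCl4. All 3 conditions overlapped. Without Ifitm3 and Bst2, BDL portions (687.3 to 861.3 RPM) and CCl4 portions (834.4 to 1021) lay below all uninjured portions (1031 to 1428). Ifitm3 itself went the other way in these wells, at 786.2, 765.4, 787.9, 825.1 and 639.4 RPM after BDL against 617.4, 617.2, 468.9, 471.5 and 963.5 uninjured, so each BDL portion lay above 4 of the 5 uninjured portions. Its log2 fold change was 0.45 ± 0.15 (SE), with an adjusted p of 0.573 by edgeR. The sign for Ifitm3 after BDL was thus opposite in FB-like and VSMC-like wells, and this difference was not tested. Of 31 genes tested in VSMC-like wells, 1 was lower than uninjured without overlap after BDL, Trim30a (1.32% of all genes), and 0 higher (1.82%). With CCl4, 2 were lower, Ifit1 and Irgm1 (0.773%), and 0 higher (0.651%). Setting BDL beside CCl4, 1 was lower, Gbp7 (1.22%), and 0 higher (1.78%), and in FB-like wells 7 of 35 were lower (2.95%) and 1 higher, Stat2 (1.4%). Counts of overlap take no account of plate, so injury and plate cannot be told apart between BDL and CCl4 portions.

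**Figure D5:**
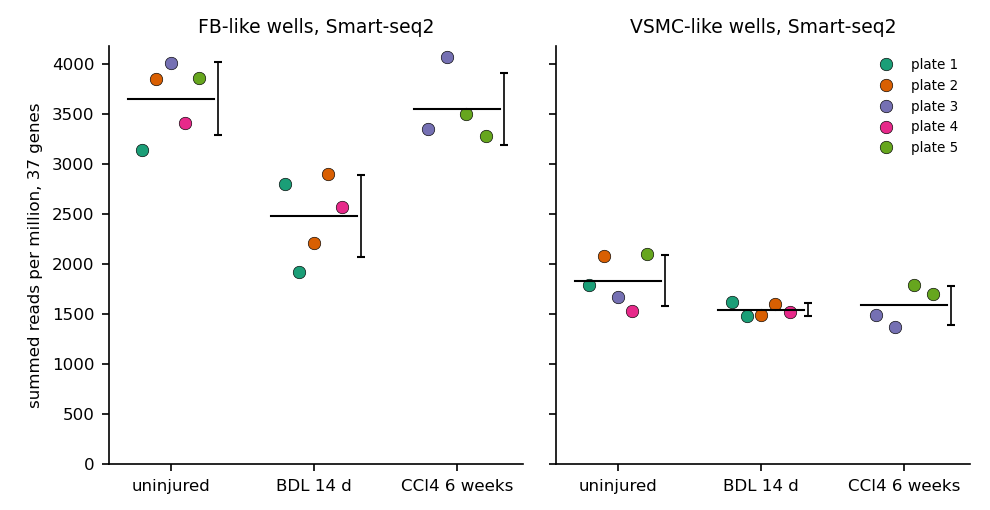
Summed RPM of the 37 genes in each Smart-seq2 portion, for FB-like wells (left) and VSMC-like wells (right). Points are portions, coloured by plate, lines are means and bars the SD (n = 5 uninjured, 5 BDL and 4 CCl4). In FB-like wells all BDL points, up to 2904, lie below all uninjured points, from 3146 upwards, and in VSMC-like wells the conditions overlap.

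No single gene of the list passed the test over all wells. Of 37 genes, 35 were tested (Oas3 and Mx1 were filtered for low counts), and edgeR's quasi-likelihood test called 0 higher and 0 lower at an adjusted p under 0.05 in BDL against uninjured (0% of all 15153 genes higher and 0% lower), in CCl4 against uninjured (0.0066% higher, 0% lower) and in BDL against CCl4 (0% and 0%). DESeq2 also called 0 of them in each, beside 409 higher and 134 lower of all 15153 genes in BDL against uninjured. Over all genes it called 275 higher and 40 lower in CCl4 against uninjured, and 72 and 77 in BDL against CCl4. At an unadjusted p under 0.05 there were 4, 1 and 0, beside 8.82%, 5.04% and 4.24% of all genes. On simulated portions of this design, edgeR recovered 0 of 67 genes changed by 2-fold and 9 of 66 changed by 3-fold. Changes of up to 2-fold were thus not detectable by this fit at this replication. DESeq2 was not run on the simulated portions. BDL and CCl4 share the uninjured portions. The median log2 fold change was -0.42 for BDL against uninjured (0.06 over all genes), 0.02 for CCl4 against uninjured (0.02) and -0.31 for BDL against CCl4 (0.02), with 28, 17 and 27 of 35 genes below 0.

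The 4 genes at an unadjusted p under 0.05 after BDL were Cmpk2, Ifih1, Ddx58 and Igtp, all lower. A count of 4 in 35 is near the share over all genes at this cut, 8.82%. Cmpk2 had 3.70, 1.26, 11.1, 20.2 and 14.3 RPM in the BDL portions, 21.7, 19.8, 39.1, 26.2 and 21.3 in the uninjured portions and 10.8, 30.3, 7.63 and 5.56 in the CCl4 portions. One BDL portion lay within the uninjured range. Its log2 fold change was -1.60 ± 0.61 (SE), with an adjusted p of 0.5 by edgeR. Ddx58 had 24.1, 36, 13.6, 34.4 and 29.7 RPM after BDL and 43.6, 57.9, 41.2, 52.7 and 55.1 uninjured. These groups did not overlap, and of the 35 genes Ddx58 and Ifi27 were lower without overlap over all wells, where 1.25% of all genes were, and 0 were higher, where 1.31% were. Igtp had 39.1, 32.1, 16.9, 23.5 and 83.2 RPM after BDL and 103.9, 62.5, 116.3, 47.0 and 37.9 uninjured, which overlap (log2 fold change -0.97 ± 0.43 (SE), adjusted p 0.564 by edgeR). In 1 uninjured portion 61.2% of the Igtp reads came from 1 well.

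Zbp1 was the only gene of the list higher with CCl4 than uninjured without overlap, a count near the share over all genes. It had 30.4, 12.6, 27.1 and 29.8 RPM in the CCl4 portions, 0, 2.14, 6.54, 4.22 and 5.65 in the uninjured portions and 3.50, 4.22, 0, 0.297 and 10.2 after BDL. All CCl4 portions lay above all others, and Zbp1 was the 1 gene of 35 higher than uninjured without overlap, where 2.58% of all genes were, and 0 were lower, where 0.99% were. In FB-like wells 1 was again higher, Zbp1, where 4.17% were, and 1 lower, Ifi35, where 1.76% were. Its fitted log2 fold change was 2.07 ± 1.80 (SE), with an adjusted p of 1 by edgeR. The leucocyte markers moved with it. They summed to 195.2, 85.8, 642.0 and 386.7 RPM in the CCl4 portions. In the uninjured portions they summed to 11.6 to 48.5 RPM, and after BDL to 2.4 to 355.1. A fit without wells holding leucocyte or endothelial marker reads called 0 of 35 genes with CCl4. With all wells 0 were called too, so the part of these markers in the result was not tested. In HSC-like cells of the 10x libraries Zbp1 had also been higher at 6 weeks than uninjured, and in FB-like cells it had 5.07 and 6.08 CPM. Setting BDL beside CCl4 over all wells, Gbp2, Ifih1, Oas2 and Zbp1 were lower without overlap, 4 of 35, where 2.07% of all genes were, and 0 were higher, where 1.17% were. These injuries lay on different plates, so injury and plate cannot be told apart in this count.

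Several of the genes with the largest fitted changes were low and uneven between wells. Iigp1 was also among the largest after BDL, with a log2 fold change of -1.335 ± 0.729 (SE, adjusted p 0.617 by edgeR). It was not low, at an average of 6.06 log2 CPM against 1.57 for Oas2. Oas2, the first in each comparison, had 0, 1.11, 0, 0 and 2.03 RPM after BDL, 0.349, 0.379, 4.43, 3.37 and 0 uninjured and 15.4, 8.56, 2.24 and 2.64 with CCl4, and in all 4 uninjured portions with reads they came from 1 well each. Its log2 fold changes were -2.09 ± 2.1 for BDL and 3.30 ± 2.64 for CCl4 against uninjured (SE, adjusted p of 0.824 and 1 by edgeR). Ifit3 had 36.6, 6.00, 9.87, 36.2 and 30.3 RPM after BDL, 20.7, 9.99, 73.8, 32.9 and 42.3 uninjured and 23.5, 10.9, 20.4 and 16.5 with CCl4. The CCl4 portions lay at the low end, with a log2 fold change of -1.62 ± 0.67 (SE, adjusted p 0.973 by edgeR), and 67.3% of the reads of the highest uninjured portion came from 1 well. Of the genes followed in every portion, Irf7 had 43.5, 11.5, 8.05, 7.06 and 28.5 RPM after BDL, 36.1, 28.4, 31.8, 27.6 and 34.9 uninjured and 60.9, 19.0, 39.4 and 56.9 with CCl4. Isg15 had 10.9 to 16.6, 15.7 to 23.7 and 8.87 to 25.1 RPM, and Bst2 had 22.0 to 78.3, 62.3 to 83.4 and 65.7 to 74.3, in BDL, uninjured and CCl4 portions. All 3 overlapped between conditions. VSMC-like wells were 36.5% to 88.8% of a BDL portion, 48.7% to 68.9% of an uninjured portion and 30.3% to 73.2% of a CCl4 portion, so sums over all wells also move with this share.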

How the data were processed

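RNA of sorted mouse liver mesenchymal cells was measured in 5 10x libraries and 6 Smart-seq2 plates. For 10x, the authors mapped reads with Cell Ranger 2.1.0 to mm10 and deposited raw UMI counts for every gene and cell. For Smart-seq2, the authors mapped reads with STAR to mm10 plus the eGFP and spike-in references, counted reads with rpkmforgenes and deposited raw read counts of each well. The 37 genes, the other gene lists and the tests were chosen with earlier results of these data known, and 3 of the 10x comparisons and that of FB-like with VSMC-like wells were added after the data were seen.

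Cells with fewer than 300 genes or more than 30% mitochondrial UMIs were left out. Genes in fewer than 3 cells of a library were not counted toward the 300, but were kept in the levels. Wells were kept within 3 median absolute deviations of their plate. Cells were scaled, logged, reduced to 15 principal components of 2000 variable genes that excluded the genes studied and the other pathway genes, and clustered with Leiden (30 neighbours, resolution 0.8, seed 20190). Classes were named from marker lists. Doublets were scored at a rate of 0.8% per 1000 cells, kept, and left out as an alternative. With 1 library per condition no test was made in 10x data. Genes named were the 5 largest CPM ratios each way with at least 10 CPM in the higher group and, in Smart-seq2, the 5 largest log2 fold changes of each comparison. Genes without overlap, those at an unadjusted p under 0.05 and others given to show each role were chosen after their values were seen. Smart-seq2 reads were summed by mouse and plate, and plates 1 to 5 were fitted with edgeR 4.0.16 (TMM, filterByExpr, quasi-likelihood, plate and condition as terms, Benjamini-Hochberg at 0.05), with DESeq2 1.42.0 as an alternative. Depth ranged from 25965670 to 86664085 UMIs per 10x library. The floor of 3 UMIs in a class was 0.0347 to 0.606 CPM, and all intervals cover counting error only. The fit was tested on simulated counts with 200 changed genes. Other alternatives were scalings, folds, minimum levels, cell and well filters, and leaving out each portion. Promoters came from RefSeq (GRCm38.p6), and gene positions from the GRCm38 annotation by Ensembl identifier. Clustering used leidenalg 0.10.2, igraph 0.11.9 and scikit-learn 1.9.0, tables pandas 2.3.3 and NumPy 2.4.6, intervals SciPy 1.17.1, and plots matplotlib 3.10.9, under Python 3.11.15 and R 4.3.3.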

Additional observations from a re-analysis of the deposited data

Results flagged for a closer look

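The uninjured HSC-like wells of plate 6 stood outside the Smart-seq2 fit and had the highest sums of the 37 genes in that assay, above the other wells of the same plate. The sum was 6819 RPM over 150 wells of one mouse and 6480 over 156 wells of another, against 3172 over 13 FB-like wells and 1586 over 17 VSMC-like wells of the third mouse. Without Ifitm3 and Bst2 the sums were 5219 and 4752 against 1843 and 1285. Iigp1 had 602.2 and 574.4 RPM in the HSC-like wells, Ifih1 310.6 and 299.5, and Oas2 109.2 and 115.3, where the FB-like wells had 181.0, 37.4 and 12.4. Mx2, annotated as a polymorphic pseudogene and not analysed in the 10x libraries, had 33.7 and 20.5 RPM in the HSC-like wells and 0 in both others. Isg15, the 2nd most abundant of the genes in uninjured HSC-like cells by 10x, had 44.0 and 35.8 RPM here. The 10x levels count UMIs and these count reads, so levels and ranks of a gene are not comparable between the assays. The HSC-like wells came from other mice than the FB-like and VSMC-like wells, and the plate held both HSC and PF preparations. Mouse, isolation and cell type thus cannot be told apart between these wells. Filters kept 31 of 62 wells of the third mouse, against 150 of 160 and 156 of 160 of the others. Of 39 groups of 4 or 5 portions of plates 1 to 5 examined for a far-lying portion, 0 had one, where chance gives about 1 in 20. With so few portions in a group, only a very distant one would be found.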

How the results depend on the processing

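Counts of Smart-seq2 genes called stayed at 0 in all 138 alternatives, and 115 of 136 alternatives for 10x counts stayed within 1.5 times. Calls over all Smart-seq2 genes did change with the setting, as with DESeq2 above. The shares of all genes given with the 10x counts are those of the main setting. In HSC-like cells the median-of-ratios scaling gave 1 higher and 9 lower at 72 h and 18 higher at 6 weeks, a fold of 2 gave 5 lower at 72 h, 4 higher at 6 weeks and 13 higher between the CCl4 libraries, and no filter on low values or the mean of per-cell CPM gave 1 higher at 72 h. Genes higher in VSMC-like cells numbered 1 with the median-of-ratios scaling or a fold of 2, 0 at 20 CPM or in all cells of the library, and 4 with no filter or with the top 1% of cells left out, and lower ones 3 with no filter and 1 in all cells. In FB-like cells no filter gave 2 higher and all cells 1 lower. At 20 CPM 11 were higher in FB-like than VSMC-like cells, and with no filter 3 were lower, and 1 was lower in HSC-like than FB-like cells. The summed level without Ifitm3 and Bst2 was 4059, 2810 and 5492 CPM in HSC-like, 1040 and 1104 in FB-like, and 705.7 and 665.1 in VSMC-like cells. With the top 1% of cells left out, the sum of all 36 genes was 9589, 7121, 11919, 3144, 3229 and 1423 CPM, the last in uninjured VSMC-like cells, and in HSC-like cells without leucocyte or endothelial marker UMIs 9733, 7112 and 11680. Thinning to 1000 UMIs gave 48.4% at 72 h, 9.67% and 11.5% in FB-like and 4.83% and 3.20% in VSMC-like cells. Of 338 alternatives for named Smart-seq2 genes, 13 changed sign, none of a called gene, and the cause was not tested. On the log2 scale, leaving out each portion in turn gave for BDL against uninjured -4.58 to 0.038 for Oas2 and -0.31 to 2.61 for Rsad2, for CCl4 against uninjured -1.93 to 2.11 for Oasl1, and for BDL against CCl4 -4.03 to 2.01 for Zbp1 and -0.011 to 4.42 for Rsad2, with the changed signs without the uninjured portions of plates 2 and 3, a BDL portion of plate 2 (Rsad2 -0.22) and a CCl4 portion of plate 3. Without plate 2, Oas2 went to 0.049 and Rsad2 to -0.31 after BDL, and Zbp1 to 1.82 between BDL and CCl4. Without the plate term Rsad2 went to -0.80 and, between BDL and CCl4, to -0.24, and to -0.14 without wells holding marker reads of other cells. Cmpk2 with CCl4 went to 2.60 in VSMC-like wells alone. No paired analysis was possible because the conditions share no replicate numbers that mark the same mouse, and plate was a term of the fit. What limits the 10x comparisons is 1 library per condition, and what limits Smart-seq2 is the spread between portions, with a biological coefficient of variation of 0.754.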

Other observations

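Within each HSC library, cells carrying Ngfr UMIs but none of Adamtsl2 had a higher summed level of these genes than cells carrying Adamtsl2 UMIs but none of Ngfr. Ngfr and Adamtsl2 mark stellate cells toward the portal and the central vein. Without Ifitm3 and Bst2, the sums were 4211 and 3829 CPM in uninjured cells (2115 and 1436 cells), 3286 and 2598 at 72 h (1583 and 2217 cells), and 6121 and 4816 at 6 weeks (1789 and 1127 cells). The cells of 1 library are not replicates, so this is a description.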
